A study of Mus musculus with 18 samples.

Results

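The cytokine genes Tnf, Il6, Il10, Il12b, Il23a, Il27, Lif, Osm and Tnfsf9 were followed across RAW264.7 macrophages and mouse liver, each as control, treated with LPS and treated with LPS+MIC-1. The 9 genes were picked by symbol as a set of macrophage cytokine genes, with earlier results of these data known. Of these, 8 had a row among the 21441 genes of the tables, and Il12b was not analysed here. The question was how far LPS moved their transcripts, and where the libraries that also received MIC-1 stood against those with LPS alone.

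RAW264.7 is a mouse macrophage-like line grown in culture, LPS is the outer membrane component of Gram-negative bacteria that these cells sense, and MIC-1 is moringa isothiocyanate-1, isolated from moringa seed. There were 18 RNA-seq libraries, 3 for each of the 6 groups. Macrophages were control, LPS, or LPS with 10 µM MIC-1 by the series' design text. The sample labels describe these cultures with the wild type C57BL/6 mouse protocol and its doses instead, and the LPS concentration and exposure time of the sequenced cultures were not given in the sources used here. Liver came from male wild type C57BL/6 mice whose age was not given. Control mice were injected with saline, the LPS group with 10 mg/kg LPS into the peritoneum, and the LPS+MIC-1 group with the same LPS after 3 days of gavage with 80 mg/kg MIC-1 in DMSO. By the study's text, gavage before the injection was with either MIC-1 or vehicle, and its control group is labelled as vehicle in DMSO. Livers were taken 16 h after the injection. The protocol had 6 mice per group, of which 3 gave a library. Nothing says that the macrophage libraries came from separate cultures, so their p-values measure the spread between these libraries, which may be technical. There was no group with MIC-1 and no LPS.

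Tnf, the cytokine that starts much of the acute response to LPS, belongs to the TNF family together with Tnfsf9, the ligand of the T cell receptor 4-1BB. Il6, Lif and Osm belong to the IL-6 family, whose receptors share the signalling chain gp130 and act through Jak kinases and Stat3. Il23a and Il27 encode the alpha chains of IL-23 and IL-27, which are secreted with the partner chains encoded by Il12b and Ebi3. Il10 is the chief cytokine by which macrophages damp their own response. In the liver, Kupffer cells and recruited monocytes are known sources of these cytokines, and hepatocytes answer IL-6 with the acute-phase response.

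In the mm9 build, the 8 genes lay on 6 chromosomes, all as protein-coding genes of GENCODE release M1. Tnf spanned chr17:35336326-35338952 on the minus strand and Tnfsf9 chr17:57244808-57247180 on the plus strand. Osm (chr11:4136423-4141029) and Lif (chr11:4157560-4172517) were neighbours on the plus strand, 16530 bp apart. Il6 lay at chr5:30339701-30346508 and Il10 at chr1:132916422-132921551, both on the plus strand. Il23a (chr10:127733196-127735140) and Il27 (chr7:133732524-133738455) lay on the minus strand.

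RefSeq promoters of GRCm38.p6 were at hand for Tnf, Il6, Lif and Il12b, and the other 5 genes had no entry. The 250 bases before the start site are shown for Tnf, Il6 and Lif, which have values below. The letters run 5′ to 3′ on the gene's strand, and capitals mark a match to any of 4 motifs searched on both strands. These were the NF-κB (kappaB) consensus, the AP-1 site TGANTCA, the TATA box TATAAA and the antioxidant response element TGACNNNGC, the last being the site of Nrf2. The coordinates are those of GRCm38.p6 and cannot be set against the mm9 positions above.
Tnf promoter, chr17:35202008-35202257, minus strand: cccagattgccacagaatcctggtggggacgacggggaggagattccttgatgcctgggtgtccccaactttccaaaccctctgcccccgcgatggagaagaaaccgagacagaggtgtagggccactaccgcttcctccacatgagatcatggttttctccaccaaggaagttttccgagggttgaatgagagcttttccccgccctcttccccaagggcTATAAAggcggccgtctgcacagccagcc
Il6 promoter, chr5:30012864-30013113, plus strand: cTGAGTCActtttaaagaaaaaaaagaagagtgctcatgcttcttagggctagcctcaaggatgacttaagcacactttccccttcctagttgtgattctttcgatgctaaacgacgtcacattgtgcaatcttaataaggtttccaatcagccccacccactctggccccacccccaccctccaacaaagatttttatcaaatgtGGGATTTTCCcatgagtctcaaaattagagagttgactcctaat
Lif promoter, chr11:4257318-4257567, plus strand: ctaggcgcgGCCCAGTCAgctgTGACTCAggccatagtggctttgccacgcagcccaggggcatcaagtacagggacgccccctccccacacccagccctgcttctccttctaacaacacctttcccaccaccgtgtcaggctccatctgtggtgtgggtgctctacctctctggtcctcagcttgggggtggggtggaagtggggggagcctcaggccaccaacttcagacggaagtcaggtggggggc
The Il6 window held a match to the kappaB consensus, GGGATTTTCC, from 44 to 35 bases before the start, and an AP-1 match, TGAGTCA, from 249 to 243 bases before it. The Lif window held an AP-1 match, TGACTCA, from 228 to 222 bases before the start, and a match to the antioxidant response element on the opposite strand from 241 to 233 bases before it. The Tnf window held a TATA box from 29 to 24 bases before the start and no match to the other 3 motifs, and the Il12b window held none of the 4. Among the 32851 promoters of the table cut to the same length, 3.90% held the kappaB consensus, 6.75% the AP-1 site, 12.4% the TATA box and 10.2% the antioxidant response element. A match is a stretch of letters and not a measured binding site.

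The macrophage libraries held an estimated 16.2 to 20.7 M reads. LPS library 2 stood apart from its group. Across the 9905 tested genes, which are not independent replicates, its log2 values correlated at r = 0.980 to 0.990 with the control libraries, and at 0.862 and 0.860 with LPS libraries 1 and 3. Libraries are numbered here by their order in the table, because its columns carry no replicate number. LPS libraries 1 and 3 differed by 3.79 times the sampling variance over genes with 500 to 2000 reads, and LPS library 2 differed from them by 116 and 120 times. Library 2 was also the one apart in the other macrophage groups, by 11.9 and 13.5 times against 2.81 between libraries 1 and 3 in control, and by 17.2 and 18.1 against 2.81 with LPS+MIC-1. In liver, control library 1 (93.6 and 112 times, against 8.90 between the others), LPS library 2 (87.0 and 94.1, against 12.8) and LPS+MIC-1 library 2 (51.9 and 51.5, against 3.73) stood apart. The study's own analysis left out an LPS library of these cells, which the sources used here do not name. The macrophage comparisons are therefore given with all 9 libraries and again without LPS library 2. The second set, called the fit of 8 libraries, rests on a close pair of LPS libraries.

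In macrophages, Tnf was the highest of the 8 cytokine genes in every group, and it was highest with LPS+MIC-1. Controls held 165, 330 and 163 FPKM of Tnf, LPS cultures 238, 344 and 238, and LPS+MIC-1 cultures 719, 658 and 709. FPKM is read fragments per transcript length and sequencing depth, here scaled between libraries by the authors, so that levels of different genes can be compared. On this scaling the FPKM of LPS libraries 1 and 3 summed to 1137533 and 1132904, against 557136 to 652486 in the other macrophage libraries. The values of those LPS libraries depend on that scaling. The control and LPS ranges overlapped, with library 2 the highest of each, whereas all LPS+MIC-1 libraries lay above all others. LPS+MIC-1 differed from LPS by a Log2FC of 1.37 (SE 0.28, adjusted p = 0.0147, limma), past an adjusted p of 0.05 but not the threshold of 0.01. It passed in the fit of 8 libraries, at 1.54 (SE 0.28, adjusted p = 0.00173, limma). Against control, LPS+MIC-1 raised Tnf by 1.75 (SE 0.28, adjusted p = 0.00495, limma), whereas LPS alone gave 0.38 (SE 0.28, adjusted p = 0.289), which did not pass and was -0.30 when all libraries were scaled to the same FPKM sum. This difference was 0.20 without LPS library 2, or -0.79 with that scaling. The call against control was lost with that scaling in the fit of all libraries (1.56, adjusted p = 0.0406, limma), and without control library 1 or 3 or any LPS+MIC-1 library (adjusted p = 0.0171 to 0.0288).

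Tnfsf9 showed the reverse order, high with LPS and near control with LPS+MIC-1, in the libraries other than LPS library 2. Tnfsf9 measured 31.3, 30.3 and 32.2 FPKM in controls, against 107, 32.8 and 111 after LPS and 36.4, 35.0 and 35.1 after LPS+MIC-1. LPS library 2 lay just above the highest control, and LPS libraries 1 and 3 above all others. With all libraries neither step passed the threshold, with a Log2FC of 1.21 for LPS against control (SE 0.41, adjusted p = 0.0777, limma) and -1.03 for LPS+MIC-1 against LPS (adjusted p = 0.105). In the fit of 8 libraries it rose by 1.78 with LPS (SE 0.06, adjusted p = 6.58e-07, limma) and fell by 1.60 from LPS to LPS+MIC-1 (adjusted p = 1.97e-06). With the libraries also scaled to the same FPKM sum these steps were 0.80 and -0.81, under the minimum change of 1 but past the adjusted p, and LPS+MIC-1 against control went from 0.18 to -0.0044, neither past the threshold.

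Il6 was close to undetected in control macrophages and highest with LPS+MIC-1. Controls were listed at 0, 0.139 and 0 FPKM, which is 0, 3 and 0 estimated reads. After LPS it reached 5.45, 0.418 and 6.37 FPKM, from 74, 9 and 92 reads, and after LPS+MIC-1 59.0, 15.5 and 59.6 FPKM, from 1159, 303 and 980 reads. The 3 groups did not overlap, and library 2 was the lowest of both treated groups. Against control, LPS+MIC-1 raised Il6 by a Log2FC of 6.15 (SE 0.81, adjusted p = 0.00217, limma). The call was lost without library 1 or 3 of either of these groups (adjusted p = 0.0143 to 0.0150). LPS+MIC-1 differed from LPS by 3.53 (SE 0.81, adjusted p = 0.0210, limma), which missed the threshold of 0.01. It passed without LPS library 2, at 2.59 (SE 0.53, adjusted p = 0.00326, limma). LPS against control gave 2.63 (adjusted p = 0.0777, limma) with all libraries and rose by 3.56 without LPS library 2 (SE 0.53, adjusted p = 0.000475). With controls near 0 these sizes depend on the pseudocount of 0.5 FPKM added before taking logs.

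Lif and Osm, grouped above with Il6 in the IL-6 family, were high in both treated groups, again apart from LPS library 2. Lif measured 1.60, 3.49 and 1.77 FPKM in controls, against 43.4, 3.30 and 42.3 after LPS and 84.6, 35.3 and 80.2 after LPS+MIC-1. LPS library 2 fell inside the control range, and LPS+MIC-1 library 2 was the lowest of its group. Osm measured 8.49, 12.6 and 7.29 FPKM in controls, against 61.4, 11.6 and 57.4 after LPS and 73.3, 58.6 and 69.7 after LPS+MIC-1. LPS library 2 again fell inside the control range, and all LPS+MIC-1 libraries lay above all controls for both genes.

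With all libraries, LPS+MIC-1 against control gave a Log2FC of 4.55 for Lif (SE 0.90, adjusted p = 0.0103, limma) and 2.79 for Osm (SE 0.57, adjusted p = 0.0122), both just short of the threshold. With 8 libraries, the same differences passed at adjusted p = 3.88e-05 and 1.79e-05 (limma). LPS alone then raised Lif by 4.02 (SE 0.41, adjusted p = 5.87e-05, limma) and Osm by 2.62 (SE 0.21, adjusted p = 1.58e-05), against 2.85 and 1.85 with all libraries (adjusted p = 0.0777 for each). LPS+MIC-1 did not differ from LPS past the threshold for either gene. That difference was, with 8 libraries, 0.53 for Lif (SE 0.41, adjusted p = 0.280, limma) and 0.17 for Osm (SE 0.21, adjusted p = 0.486). All 9 libraries gave 1.70 and 0.94. With the 8 libraries scaled to the same FPKM sum, the median of all tested genes in this comparison moved from 0.01 to 0.74. The differences for Lif and Osm are relative to the deposited scaling.

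Il23a was low in macrophages and rose with LPS+MIC-1. Controls held 0.278, 0.340 and 0.143 FPKM of Il23a, LPS cultures 1.02, 0.380 and 0.679, and LPS+MIC-1 cultures 4.30, 2.80 and 4.03, the last from 103, 67 and 81 estimated reads. The 3 groups did not overlap. It was the only one of the 8 genes past the threshold between LPS+MIC-1 and LPS with all libraries, at a Log2FC of 1.83 (SE 0.27, adjusted p = 0.00388, limma). Il23a passed the filter of a mean FPKM above 1 only through the LPS+MIC-1 libraries, where it is high. Its mean was 0.254 in control and 0.694 with LPS, so its calls are not independent of that filter. The call was lost when only these 2 groups were fitted (adjusted p = 0.0294) and in 5 of the 9 fits that left out 1 library, those without control library 1 or 3, LPS library 3 or LPS+MIC-1 library 1 or 3 (adjusted p = 0.0103 to 0.0248). With 8 libraries it was 1.63 and passed. Against control, LPS+MIC-1 gave 2.47 (adjusted p = 0.00101, limma), and LPS alone gave 0.64 (adjusted p = 0.0925), or 0.84 (adjusted p = 0.0106) with 8 libraries.

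Il27 was split sharply within the LPS group. Controls held 4.16, 5.78 and 5.26 FPKM of Il27, LPS cultures 97.7, 5.45 and 92.3, and LPS+MIC-1 cultures 14.4, 5.01 and 13.1. LPS library 2 and LPS+MIC-1 library 2 both sat at the control level, while LPS libraries 1 and 3 stood far above every other library. With all libraries neither step passed, at 2.78 for LPS against control (SE 1.00, adjusted p = 0.0777, limma) and -1.87 for LPS+MIC-1 against LPS (adjusted p = 0.206). In the fit of 8 libraries it rose by 4.11 with LPS (SE 0.39, adjusted p = 4.04e-05, limma) and fell by 3.20 from LPS to LPS+MIC-1 (SE 0.39, adjusted p = 0.000216).

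Il10, the damping cytokine, did not pass the threshold in any macrophage comparison. Il10 measured 2.48, 3.00 and 2.58 FPKM in controls, against 3.09, 2.03 and 3.49 after LPS and 7.99, 2.49 and 7.54 after LPS+MIC-1. LPS+MIC-1 libraries 1 and 3 lay above all others, and library 2 lay within the control range. LPS+MIC-1 differed from LPS by 0.83 (SE 0.39, adjusted p = 0.157, limma) and from control by 0.89 (adjusted p = 0.133). Without LPS+MIC-1 library 2 these were 1.32 (adjusted p = 0.0153, limma) and 1.38 (adjusted p = 0.0109). LPS against control was 0.06 (adjusted p = 0.912, limma), and -0.53 with the libraries scaled to the same FPKM sum. The fit of 8 libraries gave 0.25 for LPS against control, or -0.59 with that scaling, and 0.64 for LPS+MIC-1 against LPS (adjusted p = 0.20, limma).

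**Figure D1:**
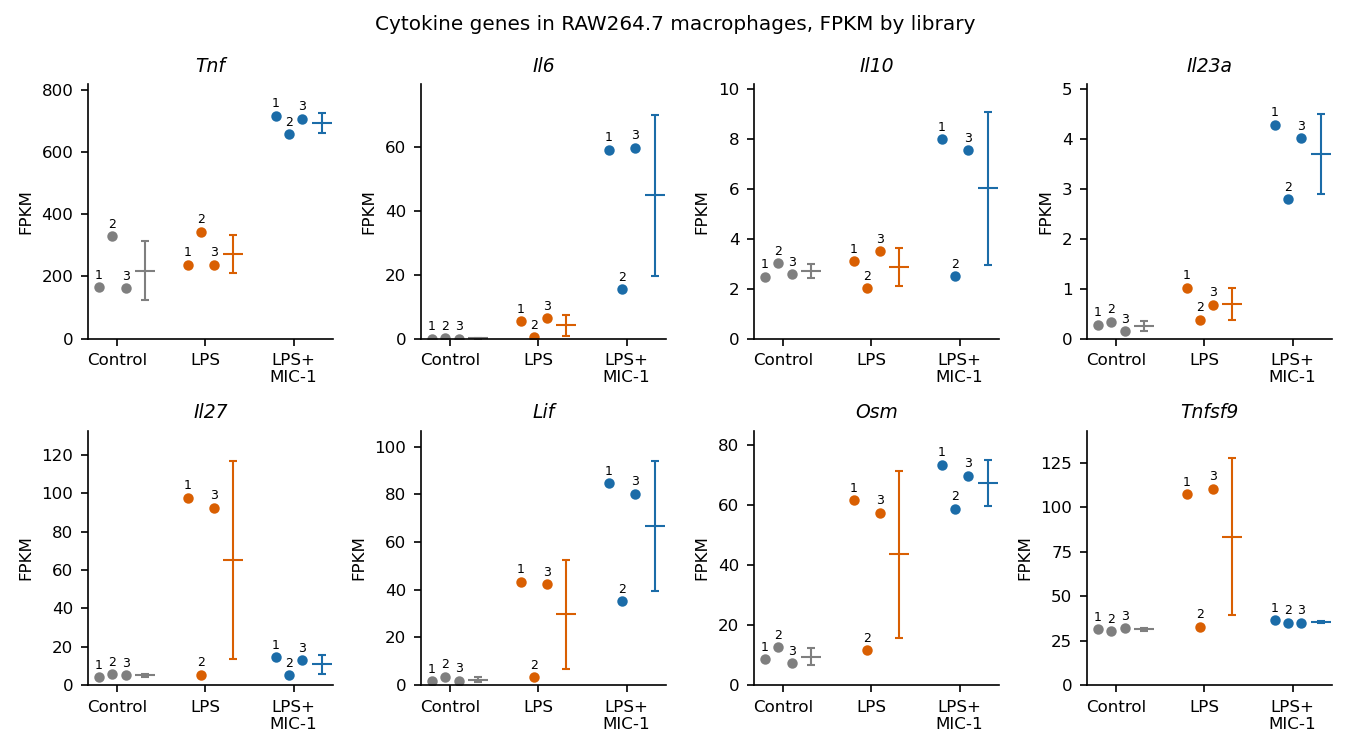
FPKM (y axis, linear, from 0) of the 8 cytokine genes in each RAW264.7 library, by group (x axis). Points are libraries with their number, and bars are the mean and SD of the 3 libraries. Tnf, Il6 and Il23a were highest in the LPS+MIC-1 libraries, Il27 and Tnfsf9 in LPS libraries 1 and 3, and LPS library 2 sat at or near the control points.

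Counted over the 8 genes, the number past the threshold turned on LPS library 2. The threshold was an adjusted p below 0.01 and an absolute Log2FC above 1. For LPS against control 0 of 8 passed with all libraries, and 0% of the 9905 tested genes did. At an unadjusted p below 0.05 with the same minimum change, 5 of the 8 and 1901 of all genes were past. With 8 libraries, 5 of 8 rose, Il27, Lif, Il6, Osm and Tnfsf9, against 16.3% of all tested genes called higher and 34.2% called in either direction. Between LPS+MIC-1 and LPS the 1 of 8 was Il23a, higher, beside 2.06% of all genes called higher and 3.87% in either direction. In the fit of 8 libraries it was 5 of 8, Il6, Il23a and Tnf higher and Il27 and Tnfsf9 lower, beside 11.3% of all genes called higher and 12% lower. Against control, LPS+MIC-1 had Il6, Il23a and Tnf higher, 3 of 8 beside 3.27% called higher, and without LPS library 2 Lif and Osm joined them, 5 of 8 beside 7.55%. The comparisons share the LPS or control libraries and are not independent of each other. Il6 and Il23a passed the filter of a mean FPKM above 1 only through the treated libraries, so the counts that include them are not independent of that filter.

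Group ranges were also compared without a model. All LPS libraries lay above all controls for 3 of the 8 genes, Il6, Il23a and Tnfsf9, beside 16.1% of the tested genes. All LPS+MIC-1 libraries lay above all LPS libraries for Tnf, Il6 and Il23a, beside 17.9%, and above all controls for 6 of 8, beside 31.4%. The exceptions in the last were Il10 and Il27. With LPS library 2 left out, LPS lay above control for 7 of 8, all but Tnf, beside 42.2% of the tested genes. LPS+MIC-1 then lay above LPS for the same 3 genes, beside 40.3%, and below it for Il27 and Tnfsf9, beside 39.9%. An exact permutation test (two-sided) on 3 against 3 libraries cannot go below p = 0.1, which is what each gene without overlap gave. The median Log2FC of the 8 genes was 1.53 for LPS against control, 1.15 for LPS+MIC-1 against LPS and 2.11 for LPS+MIC-1 against control, beside -0.03, -0.01 and -0.04 over all tested genes. Without LPS library 2 the first and second medians of the 8 genes were 2.20 and 0.58, beside -0.02 and 0.01 over all tested genes. Scaling all 9 libraries to the same FPKM sum moved the median of all genes to -0.65, 0.44 and -0.21 and that of the 8 genes to 0.86, 1.65 and 2.02. With that scaling and without LPS library 2, the first and second medians of all genes were -0.93 and 0.74. Those of the 8 genes were then 1.23 and 1.32, and Il10 turned negative for LPS against control. The ranges were compared on the deposited scaling only, so the counts that involve LPS libraries 1 and 3 depend on it.

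**Figure D2:**
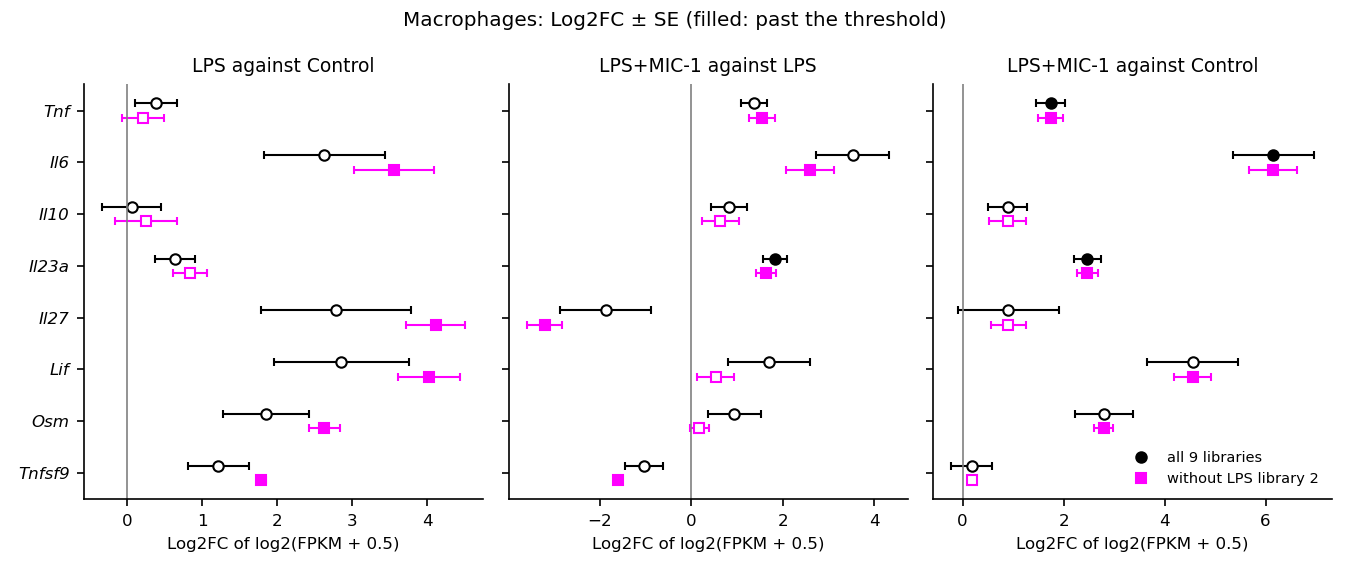
Log2FC of log2(FPKM + 0.5) with its standard error (x axis) for each cytokine gene (y axis) in 3 macrophage comparisons. Circles are the fit of all 9 libraries, squares the fit without LPS library 2, and filled symbols passed the threshold. Leaving out that library filled in Il6, Il27, Lif, Osm and Tnfsf9 for LPS against control, while the symbols of Tnf, Il10 and Il23a were unfilled there; scaled to the same FPKM sum, Tnfsf9 would be unfilled too, and Tnf and Il10 would lie below 0.

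The order of the levels changed with treatment. In control macrophages Tnf came first and Tnfsf9 second, then Osm, Il27, Il10, Lif, Il23a and Il6, and only the ranges of the neighbours Il10 and Lif overlapped. With LPS the order was Tnf, Tnfsf9, Il27, Osm, Lif, Il6, Il10 and Il23a, and every pair of neighbours overlapped other than Tnf with Tnfsf9 and Il10 with Il23a. Those overlaps rest on LPS library 2, without which no neighbours overlapped. With LPS+MIC-1 it was Tnf, Osm, Lif, Il6, Tnfsf9, Il27, Il10 and Il23a, where Tnf stood clear of Osm and Tnfsf9 of Il27.

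The genes whose log2 values ran most like each cytokine over the 9 macrophage libraries, LPS library 2 included, were taken as a description, with no test, since the points share the 3 treatments. For Tnf they were Traf3ip2, an adaptor of IL-17 signalling (r = 0.988), the cyclin Ccnd2 (0.984) and 5033406O09Rik (0.981). Traf3ip2 held 8.22, 10.6 and 8.82 FPKM in control and 16.4, 15.4 and 16.6 with LPS+MIC-1, a narrower span than that of Tnf. For Il6 they were the spermine oxidase Smox (0.996), the protease inhibitor Serpinb2 (0.995) and C2cd2l (0.994). Serpinb2 shared the low value of library 2 in both treated groups, at 69.3, 1.51 and 75.8 FPKM after LPS and 1204, 239 and 1274 after LPS+MIC-1. For Il10 they were Ttll3 (0.984), the transcription factor Maf (0.958) and Ankrd37 (0.950). Maf, known as an activator of Il10 transcription, was at 0.836, 1.03 and 0.856 FPKM in control and 7.83, 1.38 and 8.33 with LPS+MIC-1.

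Receptors for these cytokines were read from a list of 13 genes, 8 of which passed the filter in macrophages. None passed the threshold in any comparison of all 9 libraries by limma. The shares of all tested genes past it were 0% for LPS against control and 3.87% for LPS+MIC-1 against LPS. Of the receptors, the smallest p for LPS against control were those of Tnfrsf1b, a TNF receptor (Log2FC 3.28, adjusted p = 0.0777, limma), and Tnfrsf9, the receptor of Tnfsf9 (1.75). For LPS+MIC-1 against LPS they were those of Il10rb, a chain of the IL-10 receptor (0.38), and Tnfrsf1a, the main TNF receptor (0.60). The median Log2FC of the list was 0.33, 0.47 and 0.38 for LPS against control, LPS+MIC-1 against LPS and LPS+MIC-1 against control. With 8 libraries, 3 rose with LPS and 1 fell, beside 34.2% of all tested genes called in either direction. Tnfrsf1b rose by 4.61 (SE 0.29, adjusted p = 5.79e-06, limma), from 15.2 ± 5.7 to 367 ± 0.23 FPKM (SD, n = 3 and 2). Tnfrsf9 rose by 2.63 and Il12rb1, a receptor chain for IL-12 and IL-23, by 1.21, and Il6ra, the receptor of IL-6, fell by 1.98. Tnfrsf9, at a mean of 0.210 FPKM in control, passed the filter only through the treated libraries. Its call is therefore not independent of that filter. LPS+MIC-1 then kept Tnfrsf1b at 388 and Tnfrsf9 at 5.11 FPKM, against 367 and 3.90 with LPS. Past the threshold 0 of 8 differed between these treatments, beside 11.3% of all tested genes called higher and 12% lower. Tnfrsf1a (0.87) and Il10rb (0.41) had the smallest p there.

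Among the 4 tested partner chains and shedding enzymes of a list of 5, none passed with all libraries by limma. For LPS against control, where 0% of all tested genes passed, Ebi3 (1.77) and Adam10 (-0.71) had the smallest p of the list. In the fit of 8 libraries, Ebi3, the partner chain of IL-27, rose by 2.36 with LPS (adjusted p = 3.53e-05, limma). It stayed raised with LPS+MIC-1, by 2.06 over control, at 130 FPKM against 160 with LPS, while Il27 itself fell. Adam17, the protease that sheds TNF from the cell surface, fell by 1.53 with LPS (adjusted p = 1.94e-05, limma). Of the 4, 1 was thus called higher and 1 lower with LPS, beside 34.2% of all tested genes called in either direction. Of 25 other ligands of the IL-6, IL-10 and TNF families, 5 passed the filter. With all libraries 0 of these were past the threshold, again beside 0% of all tested genes for LPS against control. In that comparison Tnfsf12 (1.67) and Lta (0.88) had the smallest p of the 5. With 8 libraries, Tnfsf12 and Lta rose with LPS, by 2.07 and 1.17. These were 2 of 5, beside 16.3% of all tested genes called higher and 34.2% in either direction. Lta, at a mean of 0.882 FPKM in control, passed the filter only through the treated libraries, so its call is not independent of it. Between LPS+MIC-1 and LPS 0 of 5 differed, beside 11.3% of all tested genes called higher and 12% lower. With the libraries scaled to the same FPKM sum, the median of all genes moved from -0.02 to -0.93 for LPS against control and from 0.01 to 0.74 for LPS+MIC-1 against LPS in this fit, and the list values are relative to the deposited scaling.

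Of 23 signal transducers and feedback genes, 20 were tested. With all libraries 0 passed for LPS against control, beside 0% of all tested genes, and Tnip1 (1.60) and Tnfaip3 (1.62) had the smallest p of the list. With all libraries, Cebpd, a transcription factor induced by IL-6, was the 1 gene past the threshold between LPS+MIC-1 and LPS, beside 3.87% of all tested genes. It stood at 44.4 ± 0.72 against 16.4 ± 6.3 FPKM (SD, n = 3 each; Log2FC 1.47, adjusted p = 0.00646, limma). Against control, LPS+MIC-1 raised Cebpd, Cish and Il1rn, beside 3.27% of all tested genes called higher. Il1rn, the IL-1 receptor antagonist, rose by 4.86 (adjusted p = 0.00922, limma). Cish averaged 0.0211 FPKM in control, 0.696 with LPS and 2.35 with LPS+MIC-1. It passed the filter only through the LPS+MIC-1 libraries, so its call is not independent of that filter. In the fit of 8 libraries, LPS against control had 8 higher and 1, Tradd, lower, beside the same 34.2% of all genes. The largest were Il1rn (4.48), the kinase Pim1 (2.96), the NF-κB inhibitor Tnfaip3 (2.18) and its partner Tnip1 (2.13). LPS+MIC-1 against LPS then had 5 higher and 1 lower, beside 11.3% of all tested genes called higher and 12% lower. Pim1 fell by 2.52, from 293 to 51.1 FPKM, and Cebpd (1.76), Ripk1 (1.66) and Tradd (1.61), the last pair carrying signals of the TNF receptor, were higher. Socs3, the feedback inhibitor of gp130 signalling, was higher by 1.41 (SE 0.33, adjusted p = 0.00609, limma). The median Log2FC of the list was -0.08 there, beside 0.01 over all genes.

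Macrophage markers were high in every RAW264.7 library. The 6 macrophage markers with a row (of 7) summed to between 11021 and 13511 FPKM in every library, and the hepatocyte list to between 16.4 and 53.4. Most of the macrophage sum was Lyz2 (8726 to 10746 FPKM). Single markers moved under it. Csf1r was at 406 to 423 FPKM in control and 108 to 409 with LPS, and Emr1 at 37.2 to 42.3 and 41.2 to 290. Of the neutrophil list, 6 of 7 had a row and 1 was at 0 throughout. The sum of that list was 2.34 to 3.39 FPKM over the controls, 4.76 to 41.5 over the LPS libraries and 654 to 721 over the LPS+MIC-1 libraries. That sum was nearly all S100a8 (651 to 718 FPKM with LPS+MIC-1), while the granule genes Ngp and Ltf were at or near 0. Its part in the cytokine results was not tested.

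In liver the same cytokine genes were at the edge of detection. Of the 8, Il10 alone passed the filter of a mean FPKM above 1, and Lif missed it at 0.998. Il10 passed only through the treated groups, where it is high. The estimated depth also differed between the groups, from 4.27 to 9.70 M reads in control, 11.0 to 17.1 M with LPS and 12.8 to 17.3 M with LPS+MIC-1. Estimated reads are therefore given beside FPKM, and a value of 0 in a control library allows up to 3 reads. Whether a change reflects more cells of a type or more RNA per cell cannot be told apart in whole tissue.

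Il10 rose in liver with LPS and stayed up with LPS+MIC-1. Controls held 0.260, 0 and 0.149 FPKM, from 3, 0 and 1 estimated reads. The LPS livers held 1.62, 1.36 and 1.83 FPKM, from 31, 18 and 33 reads, and the LPS+MIC-1 livers 2.47, 1.44 and 1.59, from 41, 20 and 25 reads. All treated livers lay above all controls, and the treated groups overlapped. The Log2FC was 1.74 for LPS against control (SE 0.29, adjusted p = 0.00491, limma) and 1.87 for LPS+MIC-1 against control (adjusted p = 0.00321). Both calls held in each fit that left out 1 liver library, with adjusted p of 0.00306 to 0.0282 for LPS against control and 0.00224 to 0.0203 for LPS+MIC-1 against control (limma). The Log2FC of the first was 1.83 without LPS library 2 and 1.88 without control library 1, and that of the second was 2.01 without control library 1 and 1.99 without LPS+MIC-1 library 2. Between LPS+MIC-1 and LPS it was 0.13 (SE 0.29, adjusted p = 0.997, limma), and was -0.090 with the libraries scaled to the same FPKM sum. The threshold in liver was an adjusted p below 0.05 and an absolute Log2FC above 1. It was passed by 24.6% of the 10147 tested genes for LPS against control and by 25.2% for LPS+MIC-1 against control. Between LPS+MIC-1 and LPS it was passed by 0 genes (limma), while 100 were past an unadjusted p of 0.05 with the same minimum change, none of them one of these cytokines.

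Tnf was listed at 0 in all 3 control livers. The LPS livers held 1.36, 2.14 and 1.32 FPKM, from 34, 37 and 31 estimated reads, and the LPS+MIC-1 livers 1.02, 1.10 and 0, from 22, 20 and 0 reads. All LPS livers lay above all LPS+MIC-1 livers and above all controls. LPS+MIC-1 library 3, at 0, lay at the control level. Set against 3 reads over the whole control group, 0.0925 FPKM, the mean with LPS was at least 17.4-fold higher and that with LPS+MIC-1 at least 7.65-fold higher. These limits cover the counting error of the controls only, and not that of the treated reads or the spread between livers. The difference of LPS+MIC-1 from LPS was -0.96 on the log2 scale (two-sided p = 0.1 by an exact permutation test, the lowest value possible here). When all 17282 genes above 0 were fitted with no filter, Tnf passed for LPS against control at 2.05 (SE 0.42, adjusted p = 0.0144, limma) and not for LPS+MIC-1 against LPS (adjusted p = 1).

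Il6 was also listed at 0 in the 3 controls and was low in every treated liver. It held 0.797, 0 and 0.453 FPKM with LPS, from 13, 0 and 7 estimated reads, and 0.211, 0.503 and 0.149 with LPS+MIC-1, from 3, 6 and 2 reads. The treated groups overlapped, and the difference between them was -0.14 (exact permutation test, two-sided p = 0.9). The LPS and control ranges overlapped, with LPS library 2 at 0 (exact permutation test, two-sided p = 0.4). Against 3 reads over the whole control group, 0.141 FPKM, the LPS and LPS+MIC-1 means were at least 2.95-fold and 2.04-fold higher. These limits cover the counting error of the controls only, and not that of the few treated reads or the spread between livers.

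Lif, by contrast, was highest in the control livers. It held 2.13, 2.46 and 1.69 FPKM there, from 84, 54 and 38 estimated reads, 0.661, 0.740 and 0.477 with LPS, from 43, 33 and 29 reads, and 0.161, 0.493 and 0.170 with LPS+MIC-1, from 9, 23 and 9 reads. All controls lay above all treated livers in FPKM, while the reads of control library 3 were fewer than those of LPS library 1. The differences were -1.20 with LPS and -1.76 with LPS+MIC-1 (exact permutation tests, two-sided p = 0.1 each, the smallest possible). In the fit with no filter both passed, at adjusted p = 0.0123 and 0.00344 (limma).

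Il27 followed the same order on few reads. Controls held 0.937, 1.90 and 1.24 FPKM of Il27, from 5, 6 and 4 reads, LPS livers 0.448, 0.631 and 0.351, from 4, 4 and 3 reads, and LPS+MIC-1 livers 0.127, 0.750 and 0.268, from 1, 5 and 2 reads. All controls lay above all treated livers in FPKM, on 1 to 6 reads in every library. In the fit with no filter it missed the threshold with LPS (-0.91, adjusted p = 0.0670, limma) and passed with LPS+MIC-1 (-1.11, adjusted p = 0.0339).

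Tnfsf9 was higher with LPS, at 1.18, 0.484 and 0.950 FPKM from 21, 6 and 16 reads, than in control, at 0.186, 0.326 and 0 from 2, 2 and 0 reads. With LPS+MIC-1 it held 0.323, 0.461 and 0.545, which overlapped the control and LPS ranges. The difference of LPS from control was 1.03 (exact permutation test, two-sided p = 0.1; adjusted p = 0.0264 in the fit with no filter, limma). Il23a, at 0.159 to 0.755 FPKM from 3 to 11 reads, and Osm, at 0 to 0.494 FPKM from 0 to 10 reads, overlapped between all groups.

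Over the 8 genes, LPS and control did not overlap in liver for 5, Tnf, Il10 and Tnfsf9 higher and Lif and Il27 lower, beside 34.5% of the 17282 genes above 0 in any library. LPS+MIC-1 and LPS did not overlap for Tnf alone, beside 8.47%, and LPS+MIC-1 and control for Il6, Il10, Lif and Il27, beside 40.6%. In the fit with no filter, the threshold was passed by 4 of 8 for LPS against control, Tnf, Il10, Tnfsf9 and Lif, beside 14.6% of all genes. It was passed by Il10, Lif and Il27 for LPS+MIC-1 against control, beside 15.3%, and by 0 for LPS+MIC-1 against LPS, beside 0.0116%.

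**Figure D3:**
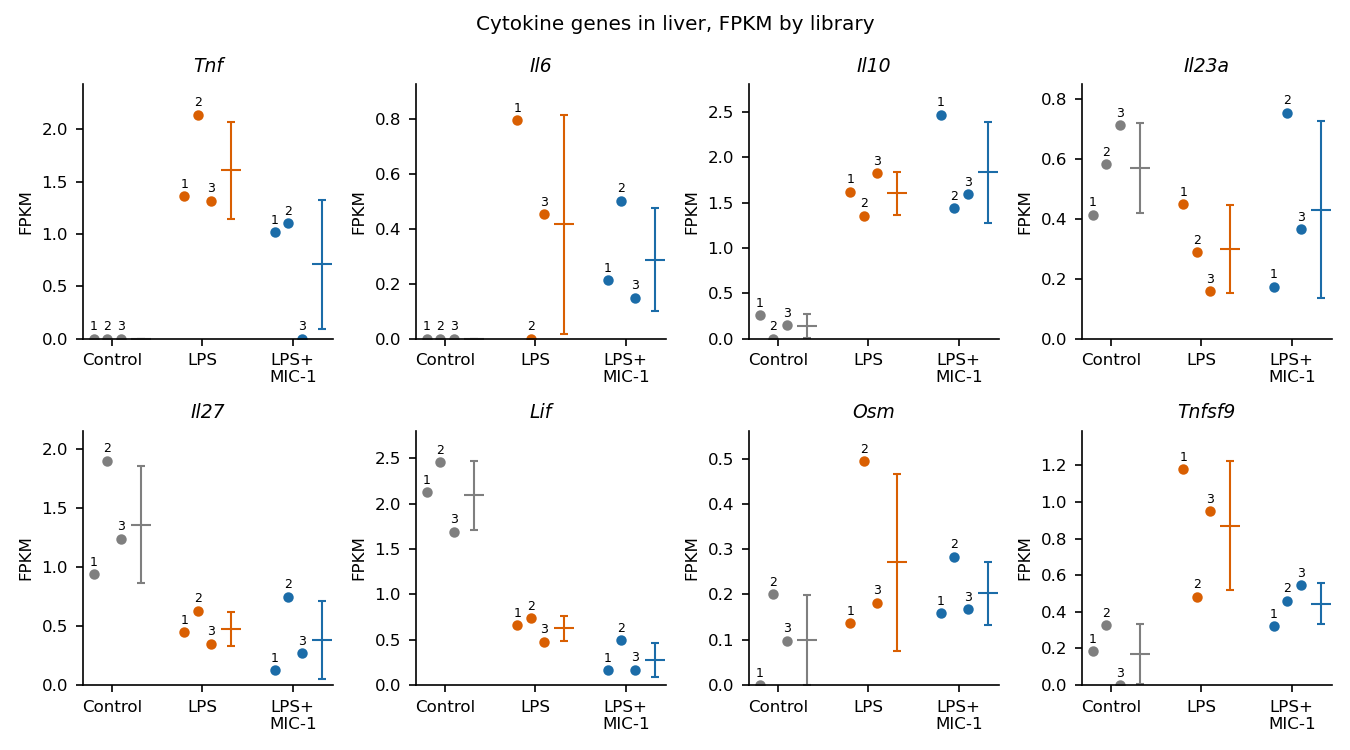
FPKM (y axis, linear, from 0) of the 8 cytokine genes in each liver library, by group (x axis), with library numbers and the mean and SD of 3. Il10 was above all controls in every treated liver, Tnf was at 0 in the controls and in LPS+MIC-1 library 3, and Lif and Il27 were highest in the controls.

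The receptors of these cytokines were better measured in liver than the ligands. Of 8 tested, 4 rose with LPS and 1 fell, beside 24.6% of all tested liver genes called in either direction. Osmr, the receptor of oncostatin M, rose by 1.89 (SE 0.39, adjusted p = 0.00965, limma), from 1.20 ± 0.49 to 5.91 ± 2.1 FPKM (SD, n = 3 each), and Tnfrsf1a, the main TNF receptor, by 1.85 (adjusted p = 0.00615). Tnfrsf9 rose by 1.38 and Tnfrsf1b by 1.30. The median Log2FC of the list was 1.17. Lifr, the receptor of LIF, fell by 1.65 (adjusted p = 0.000953, limma), from 48.5 ± 6.4 to 15.1 ± 1.5 FPKM, while the Lif transcript was also lower than control. With LPS+MIC-1, Osmr, Tnfrsf1a and Tnfrsf1b were again higher and Lifr lower than control, beside 25.2% of all tested liver genes called in either direction. Between LPS+MIC-1 and LPS 0 of 8 differed, beside 0% of all tested liver genes, and Il6ra (-1.84) and Tnfrsf9 (-0.72) had the smallest p.

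Ebi3 rose with LPS in liver as well, by 2.02 (adjusted p = 0.000876, limma), and Rhbdf2, which carries the TNF-shedding protease to the surface, by 1.19. These were 2 of the 3 tested in that list, beside 24.6% of all tested liver genes called in either direction. With LPS+MIC-1 against control 1, Ebi3, passed, beside 25.2%. Of the 4 tested other ligands, 0 passed with LPS, where Tnfsf12 (0.91, under the minimum change) and Ctf1 (0.53) had the smallest p, and Tnfsf12 was raised by 1.13 with LPS+MIC-1. Of 21 tested signal transducers and feedback genes, 7 rose with LPS and 1 fell, beside the same 24.6%. The largest were Il1rn (4.52), Cebpd (3.03), Tnfaip3 (2.83) and Socs3 (2.51), the last from 5.88 ± 1.6 to 35.9 ± 9.3 FPKM (SD, n = 3 each; adjusted p = 0.000742, limma). Stat3, through which IL-6 acts, rose by 1.74, and Socs2 fell by 2.09. Against control, LPS+MIC-1 had 6 higher and 2 lower, beside 25.2% of all tested liver genes called in either direction. Between LPS+MIC-1 and LPS 0 of 21 differed, beside 0% of all tested genes, and Pim1 (-0.74) and Socs2 (-1.36) had the smallest p. The medians of this list were 0.81, -0.16 and 0.46 for LPS against control, LPS+MIC-1 against LPS and LPS+MIC-1 against control, beside 0.15, -0.01 and 0.15 over all genes.

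Markers of several cell types moved with LPS in the livers. The macrophage list summed to 30.7 to 46.2 FPKM over the controls, 132 to 627 over the LPS livers and 130 to 439 over the LPS+MIC-1 livers, and most of it was Cd14 (84.2 to 569 FPKM with LPS). The monocyte list summed to 3.26 to 8.13, 81.0 to 113 and 68.0 to 84.0 FPKM, and 2 of its 3 tested genes were called higher with LPS. The neutrophil list summed to 35.6 to 51.5, 326 to 409 and 178 to 434, with 4 of 5 tested called higher and 1 lower. The Kupffer cell list summed to 29.2 to 51.0, 36.9 to 53.9 and 50.9 to 96.1, with 1 of 5 called higher and 2 lower with LPS. The T cell list summed to 13.1 to 17.9, 3.15 to 6.89 and 3.34 to 4.91. The hepatocyte list, all 7 markers of which were above 1 FPKM, summed to 41110 to 82029 over the controls, 33656 to 43062 over the LPS livers and 33169 to 43276 over the LPS+MIC-1 livers. With LPS, 3 of these 7 were called lower (median Log2FC -0.84). Beside the marker counts, 24.6% of all tested liver genes were called in either direction for LPS against control. The part of these shifts in the cytokine results was not tested.

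Some genes differed in opposite directions in the tissues. Lif went from 2.28 ± 1.04 to 29.7 ± 22.8 FPKM with LPS in macrophages and from 2.09 ± 0.38 to 0.626 ± 0.14 in liver (SD, n = 3 each). Tnf with LPS+MIC-1 stood above LPS in macrophages, at 696 ± 32.7 against 273 ± 61.2 FPKM, and below it in liver, at 0.707 ± 0.61 against 1.61 ± 0.46. Il10 was not opposite on the deposited scaling. With LPS it differed from control by 0.06 in macrophages, short of the threshold, and by 1.74 in liver, past it. The tables were scaled separately, so levels were not compared across them, and a difference between the tissues was not tested.

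**Figure D4:**
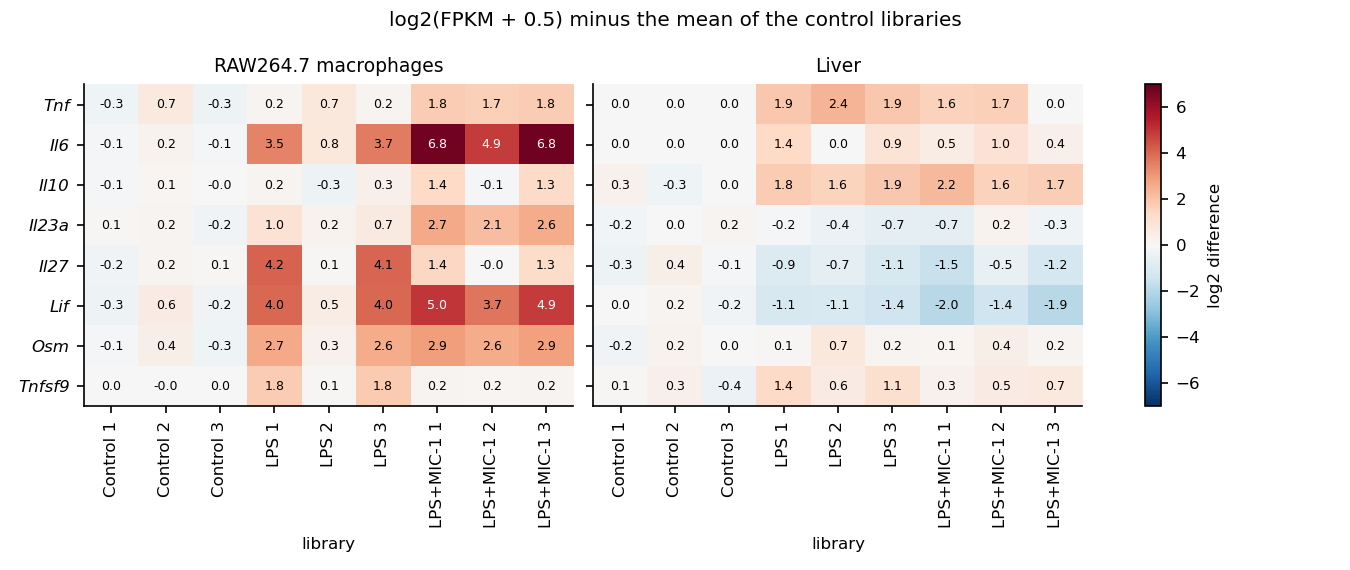
log2(FPKM + 0.5) of each cytokine gene (rows) in each library (columns) minus the mean of the 3 controls of its tissue; red is higher and blue lower than control, and each cell gives the value. Il6 reached 6.8 in macrophages with LPS+MIC-1, LPS library 2 of the macrophages stayed between -0.3 and 0.8, and Lif was positive in treated macrophages and negative in treated livers.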

How the data were processed

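RNA-seq libraries of RAW264.7 macrophages and mouse liver were analysed from 1 table of FPKM per tissue. Per the labels and the study's methods, the authors pseudoaligned reads with kallisto 0.45.0 to a RefSeq transcriptome of mm9, summed transcripts to genes with tximport, and computed the deposited FPKM with DESeq2 1.20.0, which scales the libraries of a table by size factors. The authors' mean normalized count per gene, a deposited signal averaged over all libraries, was used to turn FPKM into estimated reads. Between 92.5% and 97.4% of low values came out within 0.1 of a whole read, and intervals or floors from them cover counting error only. The fold changes and p-values of the authors' own comparisons were not used, and 0 columns of values were left unmatched to a group.

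FPKM were taken as log2(FPKM + 0.5), genes with a mean FPKM above 1 were kept, and the 3 groups of a table were fitted together with limma 3.58.1 (trend, R 4.3.3), with p adjusted by Benjamini-Hochberg over all tested genes. A gene was called at an absolute Log2FC above 1 and an adjusted p below 0.01 in macrophages or 0.05 in liver. These thresholds follow the study, and in liver the adjusted p was used. A fold change on this scale understates that of low genes. Genes under the filter were compared with exact permutation tests (scipy 1.17.1). The code was tested on simulated data. Other pseudocounts, no filter, equal FPKM sums, fits of the compared groups alone, another threshold and leaving out each library were tried. The added fits that leave out LPS library 2 of the macrophages together with another choice were chosen after seeing the data.

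The cytokine genes and the lists of receptors, partner chains, ligands, signal transducers and cell type markers were chosen with earlier results of these data known. Of each list, up to 4 called genes with the largest change are named, or the 2 with the smallest p where none was called. Tnfrsf1b, Stat3 and Socs2 in liver and Socs3, Lta and the lower Tradd in macrophages were named after their values were seen. Coordinates are from GENCODE M1. The libraries of each group were compared in pairs, and none agreed within sampling noise, so each was counted.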

Additional observations from a re-analysis of the deposited data

Results flagged for a closer look

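In 6 comparisons every treated library of one tissue lay on one side of the control or LPS mean and every one of the other tissue on the opposite side. These differences between the tissues were not tested. Lying on one side of a mean does not mean that the groups did not overlap. Macrophage LPS library 2 was inside the control range for Lif and Il27. The ranges of LPS and control overlapped for Il23a in liver, and those of LPS+MIC-1 and LPS overlapped for Lif in both tissues. For LPS against control, Lif had a difference of 2.85 on the log2(FPKM + 0.5) scale in macrophages and -1.20 in liver. Il27 had 2.78 and -0.91 in the same comparison, and Il23a 0.64 and -0.43. Between LPS+MIC-1 and LPS, Tnf had 1.37 in macrophages and -0.96 in liver, and Lif 1.70 and -0.56. Between LPS+MIC-1 and control, Lif had 4.55 in macrophages and -1.76 in liver. Of the liver values, each rests on fewer than 100 estimated reads per library, and Il23a and Il27 on 1 to 11.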

How the results depend on the processing

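No paired analysis was possible because the columns of the tables carry no replicate number, so no fit with a replicate block was made. Of the 8 macrophage cytokine genes, leaving out 1 library gave 0 to 5 calls for LPS against control, 0 to 5 for LPS+MIC-1 against LPS and 1 to 5 for LPS+MIC-1 against control. Over all genes the calls were 0 to 3386, 109 to 2310 and 141 to 1560. In each range the highest value was that without LPS library 2. Without that library and with equal FPKM sums, 4, 4 and 5 of the 8 genes and 5064, 3856 and 1723 of all genes were called. These split into 497 higher and 4567 lower for LPS against control and 3587 and 269 for LPS+MIC-1 against LPS. Without it and with no filter, the counts were 5, 5 and 5, and 3513, 2340 and 1605. For LPS+MIC-1 against LPS, equal sums gave 2 of the 8 genes. A fit of these groups alone gave 0 of the 8 and 5 genes in all, and an adjusted p below 0.05 with no minimum change 3 and 2141. For LPS+MIC-1 against control, those last settings gave 5 of the 8 and 1541 genes, and 5 and 2456.

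Directions reversed for LPS against control in Tnf, at -0.30 with equal sums and -0.79 without LPS library 2 as well, and in Il10, at -0.53 and -0.59. Leaving out 1 library gave Il10 -0.079 to 0.25 there. Tnfsf9 was -0.0044 for LPS+MIC-1 against control with equal sums, with or without LPS library 2. In liver, Il10 was -0.090 for LPS+MIC-1 against LPS with equal sums. Leaving out 1 library gave it -0.057 to 0.25, negative without LPS+MIC-1 library 1. With no filter, 4 of the 8 genes were called in liver for LPS against control and 3 for LPS+MIC-1 against control. Leaving out 1 liver gave 1227 to 3510 called genes for LPS against control, and 0 to 35 for LPS+MIC-1 against LPS, the 35 without LPS library 2. That count was 1 with a pseudocount of 1 and 2 with no filter. The cause of these shifts was not tested. Il10 stayed past the threshold in liver against control in every alternative run, for both treatments.

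Control livers held 4.27 to 9.70 M estimated reads, and the cytokine genes other than Lif had 0 to 6 reads in them.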
